A study of Rattus norvegicus with 30 samples.

Results

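Rat bone marrow mesenchymal stem cells (BMSCs) that had spent 12 h in chondrogenic medium (CH) were compared directly with cells that had spent 12 h in adipogenic medium (AD). The members were the 3 samples titled as chondrogenic at 12 h and the 3 titled as adipogenic at 12 h, 6 of the 30 samples of the series. The cells came from the bone marrow of female Sprague Dawley rats aged 3 weeks, were expanded to passage 2, and were kept in the supplier's chondrogenic or adipogenic differentiation medium in flat wells. The labels name no genetic change, and the groups differed in the medium. Each sample was a pool of 3 cultures, and no source gave the animal behind each sample. The p-values therefore measure the spread between pools within all groups of the series, which may be technical. The same pair of lineages at 3 and 72 h (6 samples each) and the undifferentiated cells at 0 h (3 samples) served as reference points.

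BMSCs are stromal cells of the marrow that can be driven towards cartilage, fat or bone. Chondrogenic media usually rely on TGF-beta, which acts through serine/threonine kinase receptors and SMAD proteins, and SOX9 is the transcription factor (TF) that directs cartilage matrix genes. Adipogenic media usually combine a glucocorticoid, insulin and an agent that raises cyclic AMP, and PPARG and the C/EBP proteins direct the later fat cell genes.

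RNA was measured as reads per gene scaled to the total reads of the library (CPM). The 6 libraries held 5405033 to 6923375 reads, of which 54.2 to 67.2% lay on the listed genes, and 3 reads corresponded to 0.433 to 0.555 CPM. Intervals and limits of this kind cover counting error only. Some genes that every cell uses had almost no reads in the table: Actb, beta-actin, was listed at 1.59, 1.87 and 1.74 CPM in CH and at 0.293, 0 and 0.925 CPM in AD, and Vim, vimentin, at 0 to 1.25 CPM. A gene listed near 0 is therefore described as that and not as silent. Among markers of marrow stromal cells, Thy1 stood at 3846 to 6057 CPM and Itgb1 at 4362 to 10996 CPM over the 6 samples. Others of that list, Eng, Pdgfra, Twist1, Alcam and Ly6e, were at or under 1.67 CPM in every sample. The macrophage and leukocyte markers summed to 0 to 0.289 CPM in CH and 0.184 to 0.740 CPM in AD, with Csf1r, Adgre1 and Mrc1 at 0 in every sample. The endothelial markers summed to 0.740 to 2.49 CPM and the red cell markers to 0 to 1.44 CPM.

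Of 4363 genes tested with limma on log2(CPM + 1), 593 were differentially expressed at 12 h, which is 13.6% of those tested. A call needed both a Benjamini-Hochberg adjusted p below 0.05 and a log2 difference of 1 or more in either direction. Expression was higher in CH for 307 genes (7.04%) and lower for 286 (6.56%), or 267 and 344 with libraries set to an equal sum over the listed genes. The median difference over all tested genes was -0.01. The 3 samples of one group all lay above the 3 of the other for 1760 genes (40.3%), and 576 of the 593 called genes were among them. In bulk samples, fewer cells of a kind and less RNA per cell cannot be told apart.

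AD replicate 1 lay apart from AD replicates 2 and 3. On the log2 scale it was more than 1 away from the mean of the other 2 AD samples for 299 genes, against 130 and 125 for replicates 2 and 3 and 34 to 60 for the CH samples. Its distance to the mean of the other 2 samples of its group was 36.1, against 27.7 and 27.5 for the others, and its distance to the mean of the osteogenic samples at 12 h was 45.7, against 59.2 and 59.5. In AD replicate 1, 64.6% of the reads lay on the listed genes, against 54.2 and 54.3% in AD replicates 2 and 3. In the CH samples the share was 61.3 to 67.2%. No label set AD replicate 1 apart, and the reason was not tested. Without it, 695 genes (15.9%) were called, 364 higher (8.34%) and 331 lower (7.59%): 562 of the 593 kept their call, 31 lost it, 133 were gained and none of the 593 changed sign. All 30 of the genes with the largest differences, described next, were called without it too. For 362 of the 593 genes the difference was larger without it.

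Among the genes higher in CH, Angptl7, Sema7a and Sox9 had the largest differences. Angptl7, a secreted protein related to the angiopoietins, was at 350.4, 473 and 291 CPM in the CH samples and at 3.66, 0.737 and 0 CPM in the AD samples. The log2 difference was 7.51 ± 0.56 (SE, n = 3 against 3, limma adjusted p = 5.4e-12), or 8.11 without AD replicate 1. Here and below, SE and p rest on a spread estimated from all 30 samples. With the compared samples only, the limma adjusted p was 0.0003 for Angptl7 and 3.35e-06 for Sox9. Sema7a, a membrane-anchored semaphorin, was at 496, 561 and 479 CPM in CH and at 2.34, 3.50 and 3.52 CPM in AD, a 164-fold ratio of means. Its 3 AD samples lay close together, all far under the CH samples, and under the 9.79 ± 2.38 CPM (SD, n = 3) of cells at 0 h. Sox9 was at 632, 718 and 564 CPM in CH and at 5.85, 5.89 and 5 CPM in AD, 114-fold (log2 difference 6.60 ± 0.14, adjusted p = 6.2e-25). Cells at 0 h had 48.1 ± 2.38 CPM of Sox9, so CH samples stood above and AD samples below the starting level, and both differences from 0 h were called (3.70 and -2.90). This pattern on both sides of 0 h held for Bhlhe40, a repressor of the circadian clock, with 634 ± 61.6 CPM in CH, 17.4 ± 4.66 CPM in AD and 254 ± 9.21 CPM at 0 h. It held as well for Cnn1, calponin of smooth muscle, with 388 ± 28.1, 17.2 ± 6.28 and 87.9 ± 0.822 CPM in that order.

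**Figure D1:**
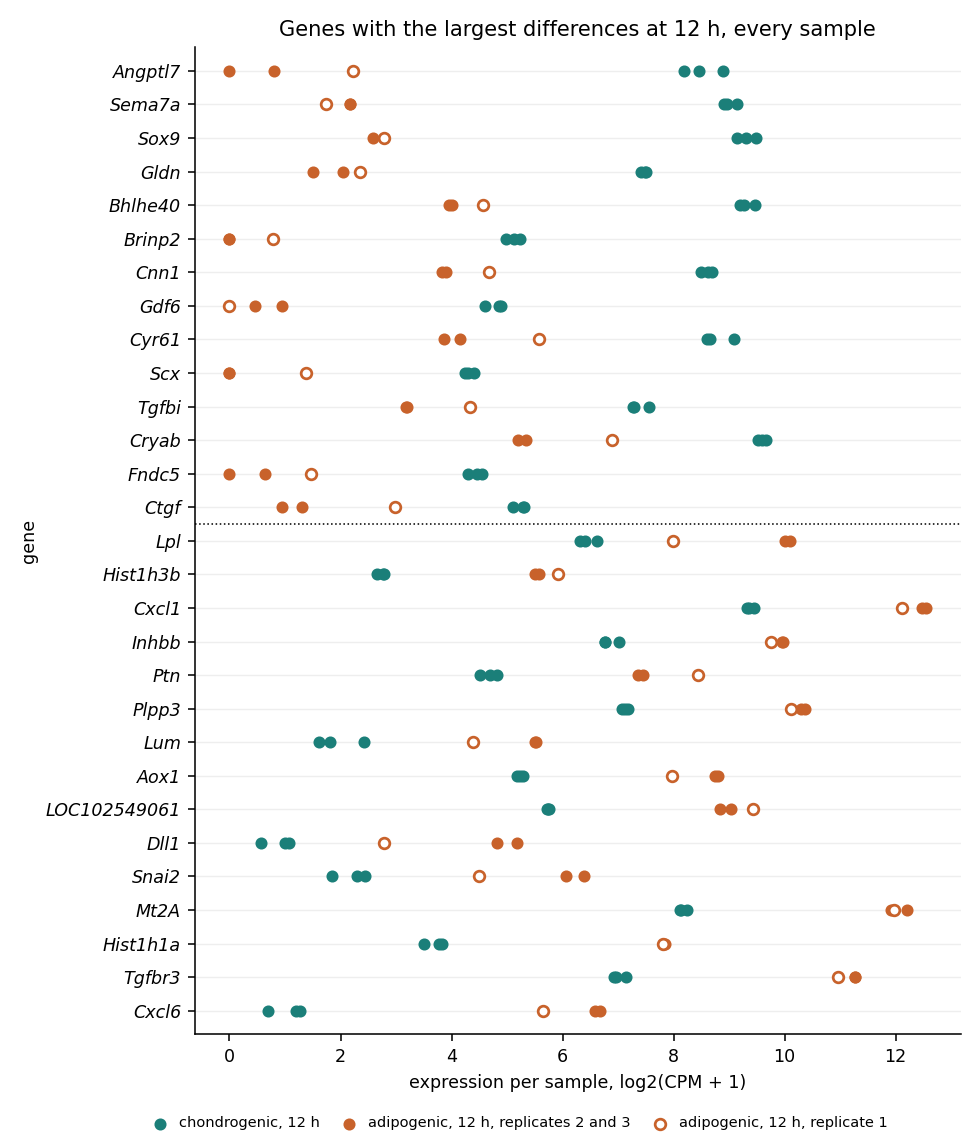
Expression of the genes with the largest differences in each direction at 12 h, as log2(CPM + 1) on the x axis, with 1 point per sample, green for the 3 CH samples and orange for the 3 AD samples (AD replicate 1 open). The groups do not overlap for any gene shown, which the choice of genes required, and AD replicate 1 is the AD sample nearest to the CH samples for 21 of the 29 genes, against 6 for replicate 2 and 2 for replicate 3.

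Other genes among the 15 highest were Gldn, Brinp2, Gdf6, Cyr61, Scx, Tgfbi, Cryab, Fndc5 and Ctgf, with log2 differences from 3.49 to 5.50. Gldn, a protein of the nodes of myelinated nerve, was at 179, 181 and 168 CPM in CH and at 4.10, 3.13 and 1.85 CPM in AD. Ctgf, a matricellular protein, had 6.87 CPM in AD replicate 1 and 0.921 and 1.48 CPM in replicates 2 and 3, against 33.6 to 38.3 CPM in CH. Its difference of 3.49 became 4.10 without AD replicate 1.

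Of the genes lower in CH, Cxcl6, Tgfbr3 and Hist1h1a had the largest differences. Cxcl6, a chemokine that attracts neutrophils, was at 1.30, 0.623 and 1.43 CPM in CH and at 49.3, 94.7 and 101 CPM in AD (log2 difference -5.24 ± 0.67, adjusted p = 2.9e-07). Tgfbr3, the co-receptor betaglycan that binds TGF-beta, was at 123, 141 and 120.4 CPM in CH and at 1993, 2479 and 2453 CPM in AD, 18-fold higher in AD. Cells at 0 h had 863 ± 18.7 CPM of Tgfbr3, and both groups differed from them in opposite directions (-2.74 in CH and 1.41 in AD). Mt2A, a metallothionein, was at 276 to 303 CPM in CH and 3872 to 4738 CPM in AD, against 356 ± 48.6 CPM at 0 h. Snai2, a repressor of the Snail family, was at 2.60 to 4.44 CPM in CH and at 21.6, 65.9 and 82.5 CPM in AD. Dll1, a Notch ligand, was at 0.475 to 1.09 CPM in CH and at 5.85, 35.2 and 27.4 CPM in AD, and its difference of -3.38 became -4.12 without AD replicate 1. The rest of the 15 lowest were LOC102549061, Aox1, Lum, Plpp3, Ptn, Inhbb, Cxcl1, Hist1h3b and Lpl, from -2.93 to -3.35.

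Measured against 0 h, the 307 genes higher in CH came from both sides. In 172 of them CH samples were above 0 h, in 77 AD samples were below it, in 11 both held, and in 69 neither group passed the test against 0 h. Of the 286 genes lower in CH, AD samples were above 0 h for 169, CH samples below it for 69, and both for 12. The comparisons with 0 h share the same 3 control samples, and over all genes they called 630 in CH (14.4%) and 597 in AD (13.7%). Their split depended on scaling: 412 genes were above and 218 below (5%) 0 h in CH, against 273 and 319 after median-ratio scaling, and 355 and 242 in AD, against 244 and 340.

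Of the 19 genes of the TGF-beta and SMAD response list that passed the filter on low values, 12 were higher and 2 lower in CH, both with all libraries and without AD replicate 1, beside 7.04 and 6.56% of all tested genes. Their median log2 difference was 1.47, beside -0.01 over all tested genes. This list and the others below were chosen with earlier results of these data known, so their counts are not independent evidence. Among ligands, Gdf6, a BMP family growth factor of joints, was at 28.0, 28.8 and 23.4 CPM in CH and at 0, 0.921 and 0.370 CPM in AD. Tgfb1, TGF-beta 1 itself, was at 336, 411 and 329 CPM in CH and at 129.7, 79.4 and 92.3 CPM in AD, 3.57-fold higher in CH. The co-receptor Tgfbr3 was lower, as given above, and the receptor Tgfbr2 was listed at 0 in all 6 samples. Nog, a secreted inhibitor of BMPs, was called higher (1.42). Among secreted targets, Tgfbi had 166 ± 18.5 CPM in CH and 11.8 ± 6.37 CPM in AD, Cyr61 445 ± 86.5 and 25.8 ± 18.4 CPM, and Ctgf 36.6 ± 2.61 and 3.09 ± 3.29 CPM. Cyr61 in CH lay near its 0 h level of 491 ± 31.3 CPM, and the called difference from 0 h was that of AD (-4.40). Id2, an inhibitor of helix-loop-helix TFs and a target of BMP signalling, was the other gene called lower (-1.74).

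Of 21 genes of the cartilage list found in the table, 8 passed the filter on low values, and 2 of these were called, both higher in CH, beside 7.04% of all tested genes. They were Sox9 and Matn4. Matn4, a matrilin of cartilage and other matrices, was at 1.88, 2.80 and 1.11 CPM in CH and 0, 0.368 and 0.185 CPM in AD. Col2a1 and Acan, the main collagen and proteoglycan of cartilage, were among the 13 genes that did not pass, with at most 1 read in any of the 6 samples. Comp was listed at 0 to 0.144 CPM in CH and 0 to 0.185 CPM in AD. Scx, the TF of tendon progenitors, was at 20.1, 18.5 and 17.9 CPM in CH, and in AD at 1.61 CPM in replicate 1 and 0 in the others.

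All called contractile genes were higher in CH. Of 29 genes of actin, myosin and the contractile apparatus tested, 15 were higher and 0 lower by limma, and 14 were not called, among them Tagln2, Synpo and Synpo2 with values of -0.45, -0.12 and -0.51. The median log2 difference over the 29 was 1.19, and without AD replicate 1 the counts were 16 and 0. They were 16 and 0 by edgeR too, which called 17.4% of all tested genes, 8.66% higher and 8.69% lower. Cnn1 led, at 393, 358 and 413 CPM in CH and 24.4, 13.3 and 13.9 CPM in AD. Tagln, transgelin, followed at 69.0, 69.7 and 72.4 CPM against 6.87, 9.76 and 10.2 CPM (log2 difference 2.86 ± 0.22, adjusted p = 8e-12). Acta1, the skeletal muscle actin, was at 7.08, 6.23 and 9.19 CPM against 0.439, 0.368 and 1.48 CPM. Tpm1, a tropomyosin, Vcl, vinculin of focal adhesions, and Actn4, an actinin, had differences of 2.03, 1.73 and 1.59. Against 0 h, 7 of the 29 were higher in CH, where 9.44% of all tested genes were, and 7 were lower in AD, where 5.55% were.

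Cell cycle genes were lower in CH at 12 h. Of 14 DNA replication genes tested, 10 were lower and 0 higher by limma (11 and 0 by edgeR), and of 21 mitosis genes 18 were lower and 0 higher (18 and 0 by edgeR). Over all tested genes 6.56% were lower by limma and 8.69% by edgeR. Without AD replicate 1 these counts were 9 and 15. The medians were -1.57 and -1.68. Mcm3, a subunit of the replicative helicase, was at 83.8, 88.2 and 74.8 CPM in CH and at 402, 299 and 282 CPM in AD. Tyms, thymidylate synthase, was at 47.5 to 52.6 CPM in CH and 193 to 246 CPM in AD. Top2a, the topoisomerase that untangles chromosomes, was at 2.31, 2.80 and 3.01 CPM in CH and at 26.8, 20.3 and 17.9 CPM in AD. Kif11, the spindle motor, was at 80.6 to 87.1 CPM in CH and at 699.9, 392 and 405 CPM in AD. AD replicate 1 was the highest of the 6 samples for Mcm3, Top2a and Kif11 but not for Tyms. CH samples were near the 0 h level and AD samples above it: 11 of the 14 replication genes and 17 of the 21 mitosis genes were called higher in AD than at 0 h, against 8.14% of all tested genes, and 2 of each in CH.

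The order of these genes over time differed between the media. At 3 h the median replication gene stood 2.20 above 0 h in CH and 1.78 in AD on the log2 scale, and the median mitosis gene 2.18 and 1.68. At 12 h the CH medians were 0.20 and 0.21 and the AD medians 1.91 and 1.95. At 72 h CH stood at -0.03 and 0.71, and AD at -0.77 and -1.22. The CH minus AD difference at 12 h was lower than that at 3 h for 11 replication and 18 mitosis genes, and lower than that at 72 h for 12 and 20, with none higher in any of these tests. Over all tested genes 7.93 and 13% were lower in these comparisons.

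**Figure D2:**
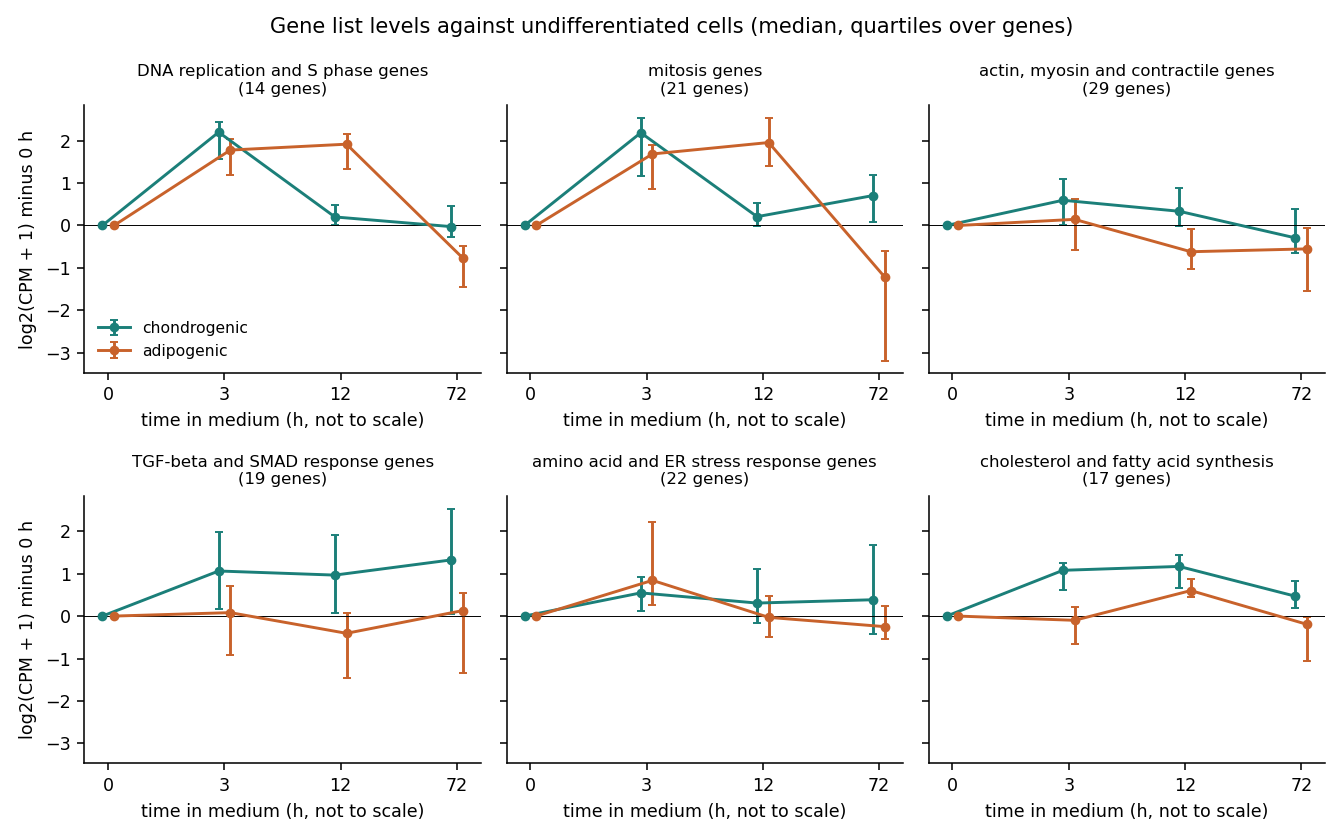
Levels of 6 gene lists against cells at 0 h, as the change in log2(CPM + 1), over time in medium (0, 3, 12 and 72 h, not drawn to scale), with points at the median over genes and bars at the quartiles. Replication and mitosis genes are near 2 in both media at 3 h, near 0 in CH and near 2 in AD at 12 h, and below 0 in AD at 72 h.

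The histone genes of the replication-dependent clusters were lower in CH as well. They were picked out after their values were seen: of 18 tested, 14 were lower in CH and 0 higher by limma (15 and 0 by edgeR), beside 6.56 and 8.69% of all tested genes lower by these tools. Hist1h1a, a linker histone, was at 13.3, 12.6 and 10.3 CPM in CH and at 225, 224 and 228 CPM in AD, with nearly the same value in all 3 AD samples. These genes are near-identical copies, so the share of reads that each one received is uncertain. Most of their mRNAs carry no poly(A) tail, and the sources differ on the library: the labels name removal of ribosomal RNA and the methods a kit for mRNA.

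Upstream sequences are shown for some cell cycle and contractile genes that moved together and hold a match to the letters searched. The sequences therefore do not show how common a match is, which is given below. They are taken from RefSeq on the GRCr8 build, cover the 100 bases before the annotated start, and read 5′ to 3′ on the strand of the gene, which is the minus strand for all 6. Capitals mark matches on either strand, and only to the elements named here for each gene. In Top2a, Hmmr and Cks2 these are the cell cycle homology region TTTGAA and the CCAAT box, and in Tyms an E2F site. In Acta1 and Cnn2 the CArG box of serum response factor is marked, while a CCAAT box in Cnn2 is not. Top2a lies at chr10:84473094-84473193, Hmmr at chr10:25665216-25665315, Cks2 at chr17:13727520-13727619, Tyms at chr9:120776084-120776183, Acta1 at chr19:68784195-68784294 and Cnn2 at chr7:10370313-10370412.
Top2a: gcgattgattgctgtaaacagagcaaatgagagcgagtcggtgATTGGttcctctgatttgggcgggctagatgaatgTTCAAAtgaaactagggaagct
Hmmr: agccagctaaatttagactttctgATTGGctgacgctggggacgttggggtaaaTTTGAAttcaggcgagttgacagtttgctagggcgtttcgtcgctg
Cks2: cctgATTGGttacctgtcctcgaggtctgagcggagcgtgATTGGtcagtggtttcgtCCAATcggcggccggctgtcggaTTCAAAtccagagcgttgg
Tyms: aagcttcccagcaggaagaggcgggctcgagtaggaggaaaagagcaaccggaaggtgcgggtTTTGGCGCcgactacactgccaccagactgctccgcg
Acta1: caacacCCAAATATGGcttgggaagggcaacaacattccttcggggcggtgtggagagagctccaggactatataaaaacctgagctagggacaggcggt
Cnn2: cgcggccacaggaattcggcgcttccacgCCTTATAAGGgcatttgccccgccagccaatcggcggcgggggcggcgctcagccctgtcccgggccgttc

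Over windows from 250 bases before to 50 after the start, the cell cycle homology region was present in 11 of the 14 called mitosis genes with a promoter in the RefSeq table (78.6%), against 11.5% of 3341 tested genes and 18.3% of all 33469 promoters. The CCAAT box was present in 13 of those 14 (92.9%), against 36.8 and 37.5%. An E2F site, counted as TTCCCGCC, TTTCGCGC or TTTGGCGC, which share letters with one another, was present in 7 of 9 called replication genes (77.8%), against 5.12 and 2.68%. A CArG box was present in 2 of 12 called contractile genes (16.7%), against 1.11 and 1.64%. Over all genes, the cell cycle homology region was in 23.0% of the 217 promoters of genes called lower in CH and 9.01% of the 233 called higher, the CCAAT box in 52.5 and 34.8%, E2F sites in 12.0 and 3.86%, and the CArG box in 1.84 and 1.72%. The SMAD element GTCTAGAC was in none of the 11 called TGF-beta genes and in 0.269% of tested genes. The letters of these elements and of the E2F sites were chosen after the genes were known, and a match is a description and not a site of binding.

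For the other elements the shares are given without a test. The cyclic AMP element TGACGTCA was in 3.86% of promoters called higher and 3.23% of those called lower, against 2.96% of tested genes. AP-1 sites, TGACTCA, were in 4.29 and 6.45% against 3.71%, and AGAACA, a single arm of the palindromic glucocorticoid element, in 10.3 and 12.9% against 12.8%. The sterol element TCACCCCAC was in neither set and in 0.329% of tested genes, and the kappa B site in none of the first, 0.461% of the second and 0.120% of tested genes.

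Matrix genes were mixed, with more of them higher in CH. Of 27 collagen and structural matrix genes tested, 10 were higher and 3 lower (11 and 4 without AD replicate 1), with a median of 0.45, beside 7.04% higher and 6.56% lower over all tested genes. Has2, the enzyme that makes hyaluronan, was at 253, 237 and 256 CPM in CH and at 26.0, 72.7 and 76.6 CPM in AD. Col8a2, a short-chain collagen, was at 1197 to 1693 CPM in CH and at 509 CPM in AD replicate 1 and 169 and 163 CPM in the other AD samples. Lama1, Fbn2 and Col5a1, chains of laminin, fibrillin and collagen V, had differences of 2.39, 2.13 and 1.97. The 3 lower genes were Lum, Spon1 and Cemip (-3.20, -1.65 and -1.26), a small proteoglycan, a spondin and a protein that degrades hyaluronan. Of 19 proteases, cross-linkers and inhibitors, 6 were higher, among them Lox, lysyl oxidase (2.35), and Adamts4 and Adamts1, which cut proteoglycans (2.03 and 1.86). The single one called lower, Mmp10, passed narrowly (-1.11, adjusted p = 0.048), had 0, 1.66 and 4.07 CPM in AD, and lost its call without any 1 of the CH samples or of AD replicates 2 and 3. It was not called with a replicate block, no filter, a pseudocount of 0.1, quantile normalization or the compared samples only either. Without AD replicate 1 its difference was -1.74 and 2 genes of the list were called lower.

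Of 42 genes of the adipogenic list, 24 were found among the listed genes and 17 passed the filter on low values. Cebpb, Cebpd, Fabp4, Adipoq and Plin2 were not found, so nothing can be said of them. Of the 17 tested, 1 was higher and 2 lower in CH, with a median of -0.22, beside 13.6% called over all tested genes. Lpl, lipoprotein lipase, was at 83.3, 78.2 and 96.8 CPM in CH and at 253, 1093 and 1028 CPM in AD. The difference was -2.93 ± 0.32 (-3.61 without AD replicate 1), and cells at 0 h had 720.3 ± 56.7 CPM. AD replicate 1 lay below and replicates 2 and 3 above that level, and every CH sample lay below it (-3.05, called). Klf4 was lower in CH (-1.35), with 669.9 CPM in AD replicate 1 and 360.4 and 363 CPM in the others. Lep, leptin, was the gene called higher, at 1.01, 2.18 and 1.11 CPM in CH and 0, 0 and 0.185 CPM in AD, and the call was lost without CH replicate 2. Without AD replicate 1 a second gene was called higher, Fabp5, a fatty acid binding protein (0.92 with all samples and 1.22 without). Pparg was listed at 0 in the CH samples and at 0.146, 0 and 0.370 CPM in AD, and Cebpa at 0, 0.467 and 0 CPM in CH and 0, 0.368 and 0.185 CPM in AD.

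Hormone response genes split. Of 11 glucocorticoid response genes, 3 were lower and 3 higher in CH (4 and 3 without AD replicate 1). For this and the next lists, 6.56% of all tested genes were lower and 7.04% higher. Tsc22d3, a classical glucocorticoid target, was at 103, 107 and 97.7 CPM in CH and at 369, 348 and 402 CPM in AD, both above the 27.8 ± 2.98 CPM at 0 h. Mt2A and Steap4, a metalloreductase, were the others that were lower (-3.87 and -1.48). Crispld2, a secreted protein, was at 711, 783 and 643 CPM in CH and at 72.1, 207 and 221 CPM in AD, against 2.50 ± 0.325 CPM at 0 h, and Tgm2 and Ctgf, which is on the TGF-beta list too, were higher as well (2.55 and 3.49). Of 9 cyclic AMP response genes, Prkar2b, a regulatory subunit of protein kinase A, and the phosphodiesterases Pde7b and Pde4b were lower in CH (-1.93, -1.70 and -1.13), and Pde4b lost its call without CH replicate 2. Akap12, an anchor of that kinase, was higher (1.46). The groups overlapped for Akap12, since AD replicate 1 had 3.66 CPM and CH replicate 3 had 3.49 CPM. Its difference was 2.08 without AD replicate 1, when a second gene of the list was called higher, and the call was lost with the compared samples only and without AD replicate 2 or 3. Of 10 genes of the insulin and IGF axis, Pik3r1, Sesn3 and Stc1 were lower in CH (-1.97, -1.30 and -1.20) and none was higher. Igfbp5, an IGF binding protein, was at 139, 149 and 138 CPM in CH and at 767, 166 and 174 CPM in AD (-0.98 ± 0.74, adjusted p = 0.35), and at 5.51 ± 1.46 CPM at 0 h.

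Inflammatory genes were lower in CH more often than higher. Of 20 tested, 8 were lower and 2 higher (8 and 3 without AD replicate 1, 8 and 1 without CH replicate 2), with a median of -0.58, beside 6.56% lower and 7.04% higher over all tested genes. Cxcl1, a neutrophil chemokine, was at 655, 643 and 701 CPM in CH and at 4442, 5664 and 6003 CPM in AD. Il6, interleukin 6, was at 0.722, 1.09 and 0.634 CPM in CH and at 6.87, 4.42 and 7.22 CPM in AD, both under its 42.3 ± 2.61 CPM at 0 h. Cxcl3, Cxcl10 and Cxcl2, 3 further chemokines, were at or under 0.156 CPM in every CH sample, with differences of -1.76, -1.45 and -1.30. Tnfrsf11b, osteoprotegerin, and Ccl7 were lower too (-1.47 and -1.32). Il1rl1, the receptor of interleukin 33, was higher in CH (1.92), at 254 to 332 CPM against 57.6 to 115 CPM, and Il1b was higher at low counts (1.12), a call lost without CH replicate 2 and after thinning to equal reads.

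The remaining lists are read against the 13.6% of all tested genes that were called. Of 22 amino acid and ER stress genes, 3 were higher in CH and 0 lower by limma and by edgeR, namely the amino acid transporters Slc1a4 (2.21) and Slc7a5 (2.04) and the chaperone Hspa5 (1.63). The count was 5 without AD replicate 1 and 5 without CH replicate 1. Hspa5 was at 7762 to 9416 CPM in CH and 2459 to 3175 CPM in AD. Of 20 glycolysis and hypoxia genes, Bhlhe40, Bhlhe41 and Car9 were higher (5.13, 2.31 and 1.22) and Ndrg1 and Egln3 lower (-1.95 and -1.02). Egln3 lost its call after quantile normalization or median-ratio scaling, with the compared samples only, and without CH replicate 1, AD replicate 2 or AD replicate 3, and Car9 without AD replicate 2. Epas1, a hypoxia TF, was at 1589, 1803 and 1574 CPM in CH and at 2325, 1374 and 1470.1 CPM in AD (-0.02 ± 0.15, adjusted p = 0.94). Among 17 cholesterol and fatty acid genes, Mylip, a ubiquitin ligase, was called lower, at 5.34, 6.08 and 10.6 CPM in CH and 24.7, 20.4 and 20.5 CPM in AD. Of 15 WNT genes, Wisp2 and Axin2 were higher (2.07 and 1.02) and Fzd4, a receptor, and Frzb, a secreted antagonist, lower (-2.48 and -1.85). Axin2 lost its call with no filter, after median-ratio scaling, with an equal sum over the listed genes, and without CH replicate 1, CH replicate 3, AD replicate 1 or AD replicate 2. Of 6 bone genes, Ankh, a pyrophosphate transporter, and Ibsp, bone sialoprotein, were higher (2.30 and 1.42). Dlx3 was lower (-1.66), at 190.0 CPM in AD replicate 1 and at 43.3 and 49.0 CPM in the others, and without replicate 1 the difference of -0.99 was not called. The call was lost with the compared samples only too. Among 12 immediate early, MAPK feedback and FGF genes, Dusp4, a phosphatase of MAP kinases, and Ier3 were higher (2.67 and 1.10) and Spry2, an inhibitor of receptor tyrosine kinases, lower (-2.20). Ier3 lost its call after thinning and without CH replicate 2 or AD replicate 2, and edgeR called 5 higher and 2 lower.

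**Figure D3:**
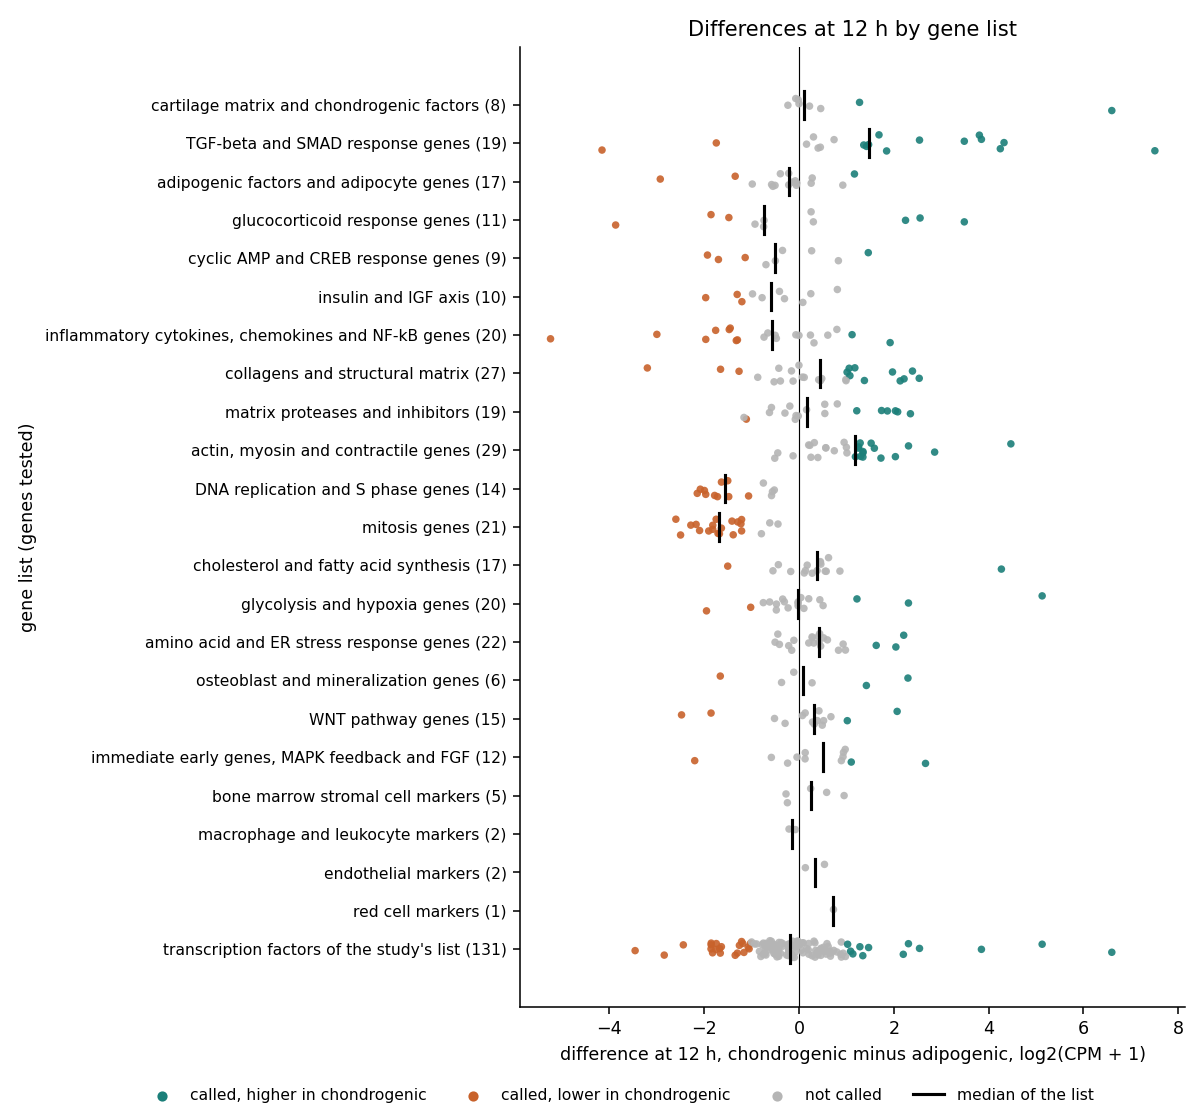
Differences in log2(CPM + 1) between CH and AD at 12 h (x axis) for the tested genes of 23 lists, with 1 point per gene, green or orange where called higher or lower in CH and grey where not called, and a bar at each list's median. The replication and mitosis genes all lie below 0, and the medians of the contractile and TGF-beta lists are above 1.

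Of 131 genes that the study listed as TFs and that passed the filter, 12 were higher and 21 lower in CH, beside 7.04 and 6.56% of all tested genes. The class was taken from the study and not checked. The study chose these genes on these samples, so their counts are not independent evidence. Besides Sox9, Bhlhe40 and Scx, the higher ones were led by Tsc22d1 (2.54), Bhlhe41 and Sox11 (2.20), a TF of neural and mesenchymal progenitors. Gbx2, a homeobox TF, passed narrowly (1.03) and lost its call by edgeR, after median-ratio scaling, with an equal sum over the listed genes, and without CH replicate 2, AD replicate 1 or AD replicate 2. The lower ones were led by Snai2, Rab24, Ehf (-2.44), Tsc22d3, Meox2 and AABR07015743.1 (both -1.85). Hopx was listed at 0.158 to 0.867 CPM in CH and 0.184 to 1.17 CPM in AD (0.07 ± 0.31, adjusted p = 0.90).

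The direct contrast at 12 h was set against the same contrast at 3 h, with which it shares no samples. At 3 h 408 genes were called (9.35%). Of the 593 genes called at 12 h, 136 were called at 3 h in the same direction, 13 in the opposite one and 444 were not called at 3 h. The difference between the contrasts was tested on its own and passed for 623 genes (14.3%), of which 277 (6.35%) were higher and 346 lower at 12 h (311 and 301 after median-ratio scaling, 315 and 296 after quantile normalization, 243 and 390 with an equal sum over the listed genes), and for 283 of the 444. Sox9 and Angptl7 differed between the media at both times (5.07 and 8.29 at 3 h). Cnn1 did not pass at 3 h, with 441 ± 2.21 CPM in CH and 309 ± 6.56 CPM in AD, and the AD level at 12 h was 17.2 CPM. The contrast was 3.96 ± 0.24 higher at 12 h (adjusted p = 1.7e-13). The same test passed for 9 contractile genes in the higher direction and 1 in the lower.

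Several genes had opposite directions at 3 and 12 h. Dusp4 was at 16.0 ± 1.38 CPM in CH and 257 ± 14.1 CPM in AD at 3 h, and at 35.8 ± 6.01 and 4.85 ± 1.46 CPM at 12 h, a change of the contrast by 6.60 ± 0.30. Plau, the urokinase that activates plasminogen, was at 8.10 and 187 CPM at 3 h and at 30.4 and 8.37 CPM at 12 h in CH and AD. Has2 and Efnb2, a ligand of Eph receptors, reversed in the same direction, from -3.08 and -2.03 at 3 h to 2.22 and 2.08 at 12 h. In all 4 genes AD was far above 0 h at 3 h, and the AD level differed more in CPM between the times than the CH level. Il6 kept its direction, with a contrast of -3.87 at 3 h that was smaller at 12 h.

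**Figure D4:**
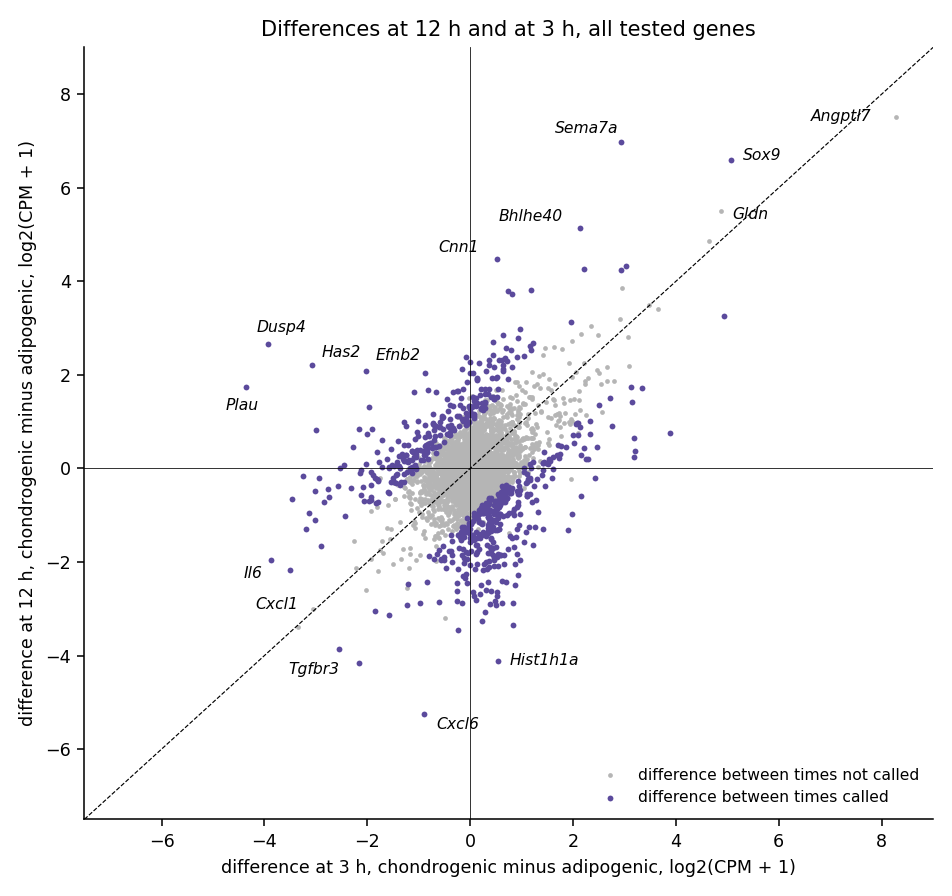
Log2(CPM + 1) difference between CH and AD at 12 h (y axis) against that at 3 h (x axis) for the 4363 tested genes, with purple points where the difference between the times was called and a dashed line of equal values. Dusp4, Plau, Has2 and Efnb2 lie above 0 at 12 h and below 0 at 3 h, and Cnn1 and Hist1h1a, at 0.51 and 0.53 at 3 h, lie at 4.47 and -4.12 at 12 h.

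At 72 h 1113 genes were called (25.5%), 720 higher (16.5%) and 393 lower (9.01%) in CH, or 631 and 577 after median-ratio scaling and 499 and 739 with an equal sum over the listed genes. Of the 593 genes called at 12 h, 323 were called at 72 h in the same direction and 57 in the opposite one, and 53 of those 57 were lower in CH at 12 h. The difference of the contrast from 72 h passed for 841 genes (19.3%), 273 higher (6.26%) and 568 lower at 12 h. This split depended on scaling, with 404 and 465 after median-ratio scaling, 387 and 436 after quantile normalization, and 445 and 411 with libraries set to an equal sum over the listed genes. Without AD replicate 3 at 72 h the counts were 289 and 516. Kif11 was lower in CH at 12 h (-2.50) and higher at 72 h (4.20), with 133 ± 6.36 CPM in CH and 6.34 ± 0.553 CPM in AD at 72 h. Gldn was at 6.97 ± 2.22 CPM in CH at 72 h against 176 ± 6.82 CPM at 12 h, and its contrast was 4.81 ± 0.52 higher at 12 h (5.67 without AD replicate 3 at 72 h). Tgfbi moved the other way, reaching 1553 ± 65.4 CPM in CH at 72 h. Tgfbr3 was lower in CH at all 3 times, by 2.17, 4.15 and 6.18 on the log2 scale at 3, 12 and 72 h. Akr1cl, an aldo-keto reductase, was listed at 0 in all CH samples at 12 h and at 4.68, 6.63 and 2.78 CPM in AD, at least 30.8-fold higher against a floor of 3 reads over the CH samples, and at 302 ± 66.0 CPM in AD at 72 h.

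The genes in which AD replicate 1 stood farthest from its replicates are given by their values. Among those farthest from AD replicates 2 and 3 with a mean of at least 10 CPM were Kprp, C5ar2, Hnrnpa2b1, Clca4l, Hspb7, Crip2, NEWGENE_620180, Dll1 and Sfrp2. Kprp, a protein of keratinocytes, was at 197 CPM in AD replicate 1 and at 9.39 and 7.22 CPM in the others, with 38.4 to 46.1 CPM in CH. Its difference was 0.75 and not called, but 2.23 and called without replicate 1. Hspb7, a small heat shock protein of muscle, was at 4972, 818 and 814 CPM in AD and at 7497 to 8594 CPM in CH (2.42, or 3.28 without replicate 1). Crip2 was called at 1.22 with all samples and at 1.99 without replicate 1, but not by edgeR (0.82), with the compared samples only, or without AD replicate 2 or 3. NEWGENE_620180 was called at -2.40 with all samples and at -3.15 without replicate 1. C5ar2, Clca4l, Hnrnpa2b1 and Sfrp2 were not called by limma with or without replicate 1. With all samples edgeR called C5ar2 (-2.30) and Clca4l (-1.88), limma called C5ar2 without AD replicate 2 (adjusted p = 0.037), and Sfrp2 went from -0.29 to 0.44. Of the 593 called genes, 22 moved by over 1.5-fold without this library, 19 of them to a larger difference, and 0 did so when any other of the 6 was left out.

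**Figure D5:**
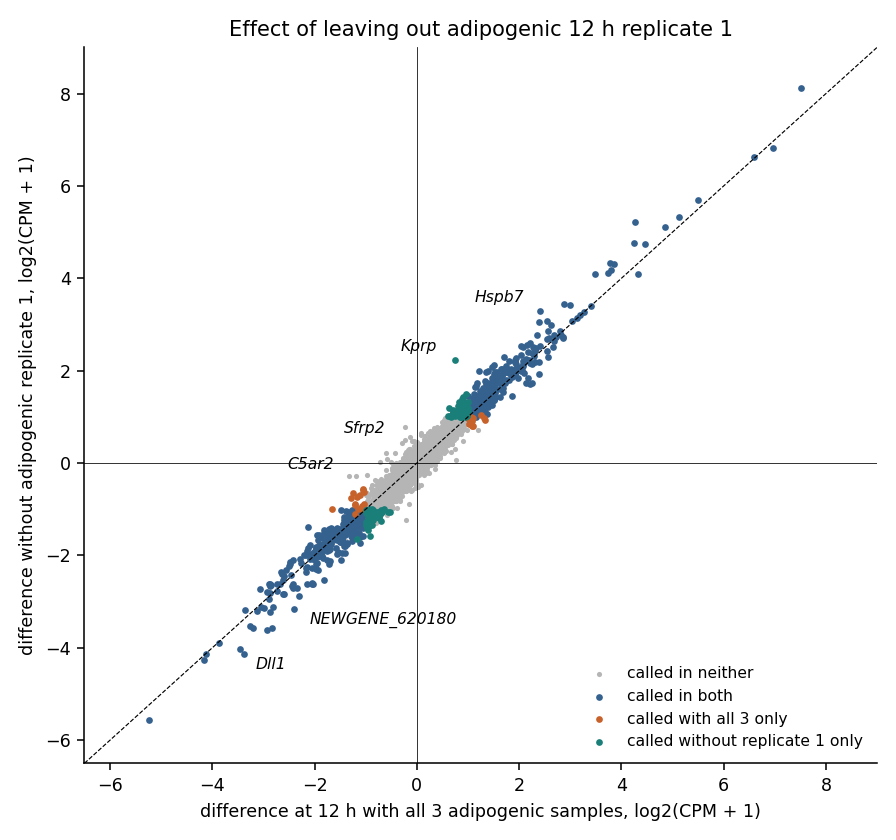
Log2(CPM + 1) difference between CH and AD at 12 h with all 3 AD samples (x axis) and without AD replicate 1 (y axis) for the 4363 tested genes, coloured by whether the gene was called with, without, in both or in neither, and with a dashed line of equal values. Of the 593 genes called with all samples 362 lie on the outer side of the line, and Kprp rises from 0.75 to 2.23.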

How the data were processed

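RNA of 30 samples was sequenced by the study. The authors' processing notes name Trimmomatic, HISAT2 and StringTie, and the genome build is not given in the sources used here. The deposited values carry the name FPKM but were CPM: every value of a sample was a whole multiple of its smallest (tolerance 0.02), so whole read counts were recovered from the deposited values. Rows sharing a gene name were summed (10803 rows, 9999 names). The filter on low values kept the 4363 genes that reached 1 CPM in 3 or more samples. limma 3.58.1 in R 4.3.3 was fitted to log2(CPM + 1) of all 30 samples with a term per group, so fold changes of low genes are understated. edgeR 4.0.16 on the recovered reads was an alternative. Calls needed a log2 difference of 1 and an adjusted p under 0.05. Named genes were the 15 largest non-overlapping calls in each direction at 10 CPM or more, up to 6 called members per list and direction, some canonical genes, the 6 largest changes between times in each direction, and the 10 genes in which AD replicate 1 was farthest from the others. Members and lists were chosen with earlier results of these data known. 1 gene that this rule names is not reported here. The scripts were tested on simulated data.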

Additional observations from a re-analysis of the deposited data

Results flagged for a closer look

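The contrast between chondrogenic and adipogenic medium at 12 h was tested against the same contrast at other times, and genes that passed are given here as values on the log2 scale. Against 3 h, 623 genes passed. The contrast was higher at 12 h for Dusp4 (6.60), Plau (6.11), Has2 (5.30), Efnb2 (4.11), Sema7a (4.04) and Cnn1 (3.96). It was lower for the linker histone Hist1h1a (-4.66), Cxcl6 (-4.35), LOC102549061 (-4.19), Hist1h2bo (-3.71), Aox1 (-3.51) and Hist1h2ak (-3.50).

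Against 72 h, 841 genes passed. The contrast was higher at 12 h for C4b, a complement protein (5.91), Akr1cl (5.67), Ace, the angiotensin-converting enzyme (5.51), Gldn (4.81), Vat1l (4.69) and Cxcl14, a chemokine (3.94). It was lower for LOC102549061 (-8.21) and for the mitosis genes Kif20a (-7.40), Nuf2 (-7.34), Birc5 (-6.90), Kif11 (-6.69) and Hmmr (-6.69). Without AD replicate 3 at 72 h, Cxcl14 stood at 5.85.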

How the results depend on the processing

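The 593 genes called at 12 h ranged from 543 with the compared samples only to 806 by edgeR without AD replicate 1, with 764 at a pseudocount of 0.1 and 757 by edgeR on all samples. Leaving out 1 library gave 566 to 695 for the 12 h contrast, 571 to 687 for its difference from 3 h and 750 to 835 for that from 72 h. The difference from 72 h fell from 841 to 554 with edgeR without AD replicate 1, and the cause was not tested. Deviations from the group means at 12 h had r from -0.041 to 0.080 over the 3 pairs with the same replicate number. Pairs of unlike number had r from -0.102 to 0.110. These values cannot show whether the samples were paired. A fit with the replicate number as a block called 592 genes, and 616 and 838 for the differences from 3 and 72 h. Of 134 named genes 120 were called, 108 of them under every setting that gave them a value (103 had one with shared gene names tested apart), and none of the called ones reversed. Genes not called that changed sign with 1 library left out were Comp (-0.082 to 0.065), Cebpa (-0.23 to 0.062), Epas1 (-0.16 to 0.22), Hopx (-0.080 to 0.36), Kprp (-0.071 to 2.23), Hnrnpa2b1 (-1.24 to 0.35) and Sfrp2 (-0.72 to 0.44). Cebpa was at 0.075 after thinning and Kprp at -0.72 by edgeR. Without AD replicate 1, Epas1 was at 0.19 after median-ratio scaling and 0.18 by edgeR, and Sfrp2 at 0.41 and 0.47. Of 48 counts of list members, 34 stayed within 1.5 times under every setting. Reads per library limit genes near 0.433 to 0.555 CPM.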
